A study of Schizosaccharomyces pombe with 16 samples.

Results

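Non-coding RNAs that run antisense to coding genes were examined in *Schizosaccharomyces pombe*, fission yeast, across 3 strains and 4 media. A member is an annotated RNA with an SPNCRNA identifier on chromosome I, II or III. At least 50% of its span overlaps exactly 1 coding gene on the opposite strand, it touches no coding gene on its own strand, and it lies more than 70 kb from the ends of chromosomes I and II. The rule gave 487 members of 1542 SPNCRNA features and 7019 features in all. They pair with 453 sense genes, of which 31 carry more than 1 member and the most loaded carries 4. The rule uses position alone and no measured value.

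The 12 stranded libraries used here fall into 8 groups of strain and medium. Wilmar-P (h90, the industrial bioethanol isolate) and Wilmar-A (h90, its ancestral isolate) each had 2 libraries from glucose-starved cells, 1 from glucose-deficient cells and 1 from glucose cells. Wilmar-P and laboratory *S. pombe* (972 h-) each had 2 libraries from molasses. Cells were first grown in rich YES medium with glucose and then held for 4 h in the test medium, which for starvation was YES with 3% glycerol as the carbon source, for deficiency 3% glycerol with 0.1% glucose, and for the glucose groups 3% glucose. The libraries were made from total RNA after removal of ribosomal RNA, and counts are relative to each library's total, so a change in RNA per cell is not seen. The labels do not say that replicates are separate cultures, so the p-values measure the spread between libraries, which comes from the 4 groups with 2 libraries and leaves 4 residual degrees of freedom.

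Antisense transcripts in fission yeast arise from promoters inside or downstream of a gene, from divergent promoters of neighbouring genes and from read-through at gene ends. They are held down by the nuclear exosome, RNA interference and the chromatin factors that close cryptic promoters behind RNA polymerase II. Fission yeast is known for antisense RNA over genes of meiosis, where it can lower the sense transcript or follow its silencing.

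Members spanned 76 to 4984 bases, with a median of 1238, and 485 had a single exon. The sense gene contained the whole antisense RNA in 210 pairs. The antisense RNA ran past the 5' end of the sense gene in 135 pairs, past its 3' end in 92 and over both ends in 50. In 460 pairs with a coding sequence in the RefSeq annotation, the antisense RNA spanned both the start and the stop codon in 137, the start codon alone in 133, the stop codon alone in 92 and neither in 98. The annotated start of a member lay inside the sense gene's span in 346 pairs and past its 3' end in 141.

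The sequences below show where 8 antisense RNAs discussed in the results cross the start of their sense gene. Each is 60 bases of the antisense strand, 5' to 3', and the capitals CAT mark the complement of the sense ATG. They are read from the RefSeq annotation of assembly ASM294v3, which is the laboratory strain, so the Wilmar isolates may differ in single bases.
SPNCRNA.770, over gar2, chrI:1897523-1897582, minus strand: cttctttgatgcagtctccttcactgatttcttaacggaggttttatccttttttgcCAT
SPNCRNA.1487, over mag2, chrII:2120286-2120345, minus strand: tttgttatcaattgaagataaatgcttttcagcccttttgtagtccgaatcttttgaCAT
SPNCRNA.973, over hsp3105, chrI:4230850-4230909, minus strand: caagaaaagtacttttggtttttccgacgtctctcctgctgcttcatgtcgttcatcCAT
SPNCRNA.1324, over fbp1, chrII:199083-199142, plus strand: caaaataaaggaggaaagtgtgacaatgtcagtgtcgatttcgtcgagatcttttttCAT
SPNCRNA.1319, over ght4, chrII:157555-157614, minus strand: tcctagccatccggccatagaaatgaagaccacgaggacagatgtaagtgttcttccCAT
SPNCRNA.872, over eta2, chrI:3002057-3002116, minus strand: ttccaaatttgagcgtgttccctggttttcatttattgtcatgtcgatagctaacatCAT
SPNCRNA.928, over mde6, chrI:3697508-3697567, minus strand: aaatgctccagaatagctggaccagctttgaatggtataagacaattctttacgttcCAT
SPNCRNA.687, over cph1, chrI:799550-799609, minus strand: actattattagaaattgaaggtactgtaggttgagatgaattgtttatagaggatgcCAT
In each of the 8 the annotated antisense RNA runs through the sense start codon, and the starvation, deficiency and strain results below return to them.

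Depth was similar across the 12 libraries, with 13246648 to 15457942 assigned counts. A floor of 3 counts, under which a level was not told from 0, equals 0.194 to 0.226 CPM, counts scaled to library size. The floor covers counting error only. The antisense RNAs were low: their median count ran between 18 and 44 across libraries, against 365 to 553 for their sense genes. Of the 487, 319 had more than 3 counts in every library, 15 had 3 or fewer in every library and 2 had none at all. The filter on low counts kept 447 for testing. Together the members took 0.16% to 0.404% of all counts. Wilmar-P molasses libraries were lowest, at 0.172% and 0.16%, against 0.285% and 0.404% in laboratory molasses libraries. As a strain check, *gal1*, *gal7* and *gal10* had at most 4 counts in each Wilmar library and 40 to 272 in the laboratory libraries. Ribosomal RNA left after depletion took 0.22% to 9.77% of counts, with 9.77% in Wilmar-P molasses replicate 2.

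Strand-specific counting can be checked on pairs whose sense gene is very abundant. For the 5 most abundant, *cpc2*, *rpl1002*, *pma1*, *tef103* and *rpl1801*, the antisense count never exceeded 0.247% of the sense count per kb, which bounds reads assigned to the wrong strand. Levels per kb of annotated length put the typical antisense RNA well below its sense gene, with a median ratio of 0.124 over pairs and quartiles of 0.0381 and 0.416. Of the 487 pairs, 149 had a ratio under 5% and 58 under 1%. Across pairs the log2 mean levels of antisense RNA and sense gene had r = -0.19 (n = 487 pairs sharing the same libraries).

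**Figure D1:**
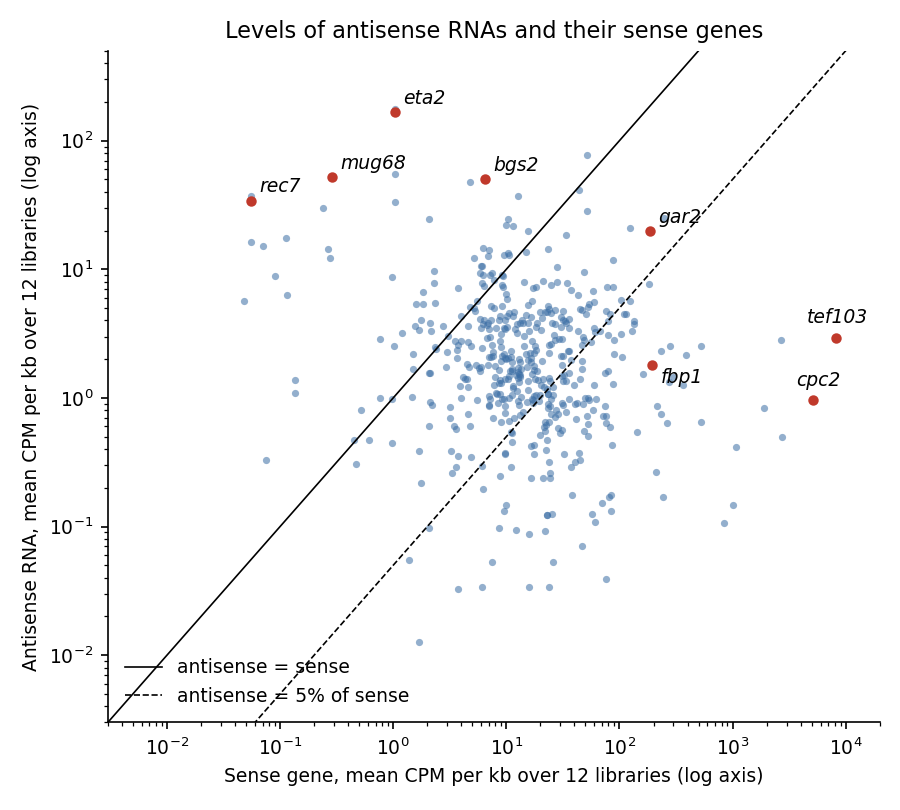
Mean level of each antisense RNA (vertical, CPM per kb, log axis) against its sense gene (horizontal, CPM per kb, log axis) over 12 libraries, 1 point per pair; 2 pairs without counts on a side are not drawn. The solid line marks equal levels, which 71 pairs exceed, and the dashed line an antisense level of 5% of sense; named pairs are red.

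In 71 pairs the antisense RNA exceeded its sense gene by mean level, and in 31 it did so in every library. They include genes of meiosis and spore formation. By gene name, 7 of the 33 pairs on the list of meiosis and mating genes were among the 31, and so were 24 of the other 454 pairs. The 33 pairs cover only 28 genes, and some genes, such as *rec7*, enter with several pairs. The list leaves out some meiotic genes, such as *dmc1*, whose pair is among the 24. It was matched by symbol and also takes in *mcp60*, a mitochondrial chaperonin gene. These counts therefore do not cleanly separate meiotic genes from others. Over *rec7*, a meiotic recombination gene with at most 0.407 CPM, SPNCRNA.69 (chromosome III, 1547928 to 1549537, plus strand) had 22.6 to 115 CPM. SPNCRNA.1469, over the RNA-binding protein gene *SPBC28E12.02*, had 41.7 to 73.6 CPM, and the gene itself reached at most 0.424 CPM. The antisense RNAs of *dmc1*, the meiotic strand-exchange recombinase, and *spo4*, a meiotic kinase gene, never had less than 30.1 and 20.5 times the sense level per kb.

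The highest antisense levels per kb were SPNCRNA.73 and SPNCRNA.74 over *eta2*, a Myb-family RNA polymerase I termination factor gene, with means of 176.6 and 166.9 CPM per kb. Both lie inside SPNCRNA.872 (chromosome I, 3001750 to 3004335, minus strand), which covers the whole of *eta2*. A read over more than 1 feature was counted for each, so the 3 share reads and are 1 signal rather than 3. In all, 83 members overlap another SPNCRNA feature on the same strand. SPNCRNA.514 over *rrb1*, at 76.7 CPM per kb, is only 101 bases long, and per-kb values of so short a feature can be inflated by reads that reach past it. SPNCRNA.815 over *mug68*, a gene induced in meiosis, followed at 52.2 CPM per kb, and SPNCRNA.880 over *bgs2*, the spore wall glucan synthase, at 50.2.

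Glucose starvation was compared with glucose over both Wilmar isolates (4 libraries against 2). Antisense RNAs moved in both directions at rates near those of all features. Of the 447 tested, 101 rose (22.6%, against 19.2% of all features) and 75 fell (16.8%, against 15.4% of all features), by edgeR's quasi-likelihood test at an adjusted p below 0.05 and a log2 fold change beyond 1. The median log2 fold change was 0.16 for members and -0.01 over all features. The log2 fold changes had a median of 2.03 among those that rose and -1.77 among those that fell. Of 311 tested SPNCRNA features that overlap no coding gene, 78 rose and 56 fell.

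**Figure D2:**
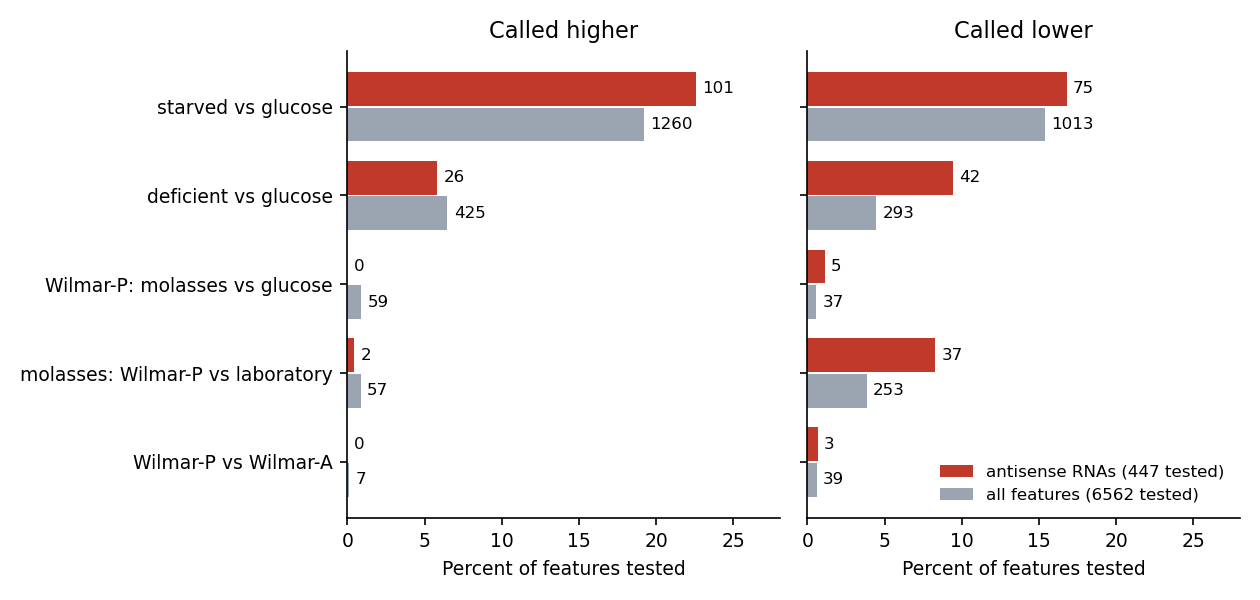
Share of antisense RNAs (red) and of all features (grey) called higher (left) and lower (right) in each of the 5 comparisons, in percent of features tested, with the number called beside each bar. In starvation the members stand at 22.6% higher and 16.8% lower, beside 19.2% and 15.4% of all features.

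The clearest rise was over *gar2*, the nucleolin gene of ribosome production. SPNCRNA.770 (chromosome I, 1897289 to 1898926, minus strand) had 58.5 and 101 CPM in Wilmar-P and 73.1 and 108 CPM in Wilmar-A starved libraries, against 0.238 CPM in Wilmar-P and 2.28 CPM in Wilmar-A glucose libraries. Its log2 fold change was 6.82 ± 0.42 (SE, adjusted p = 1.56e-06, edgeR). Every starved library lay above both glucose ones, which the choice of named members required. The *gar2* transcript itself moved the other way, with 89.7 and 30.7 CPM in Wilmar-P and 143 and 82.3 CPM in Wilmar-A starved libraries, against 409 and 475 CPM in glucose libraries (log2 -2.42 ± 0.38, adjusted p = 0.00037). In glucose-starved replicate 2 of each isolate antisense exceeded sense, and in the other starved libraries it did not.

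SPNCRNA.1223 (chromosome III, 1721177 to 1722876, minus strand), over the uncharacterized gene *SPCC191.10*, had 85.6 and 40.6 CPM in Wilmar-P and 82.2 and 76.95 CPM in Wilmar-A starved libraries, against 0.297 and 0.876 CPM in glucose libraries (log2 7.09 ± 0.45, adjusted p = 1.66e-06). Its sense gene stayed below 1 CPM in all. This antisense RNA starts 517 bases from the start of *inv1*, the secreted invertase gene, which is transcribed in the other direction and rose by 7.64 on the log2 scale. SPNCRNA.734 over *ade3*, a purine synthesis gene, had 3.27 to 6.79 CPM in starved libraries and was at the floor in glucose ones, so it was at least 30.1-fold higher, while *ade3* itself had a log2 change of 0.41 (adjusted p = 0.245).

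For 2 further RNAs, 1 library carried much of the size. SPNCRNA.932 over *fub1*, a proteasome inhibitor domain gene, had 7.47 and 89.4 CPM in Wilmar-P and 3.73 and 16.6 CPM in Wilmar-A starved libraries, against 0 and 0.175 CPM in glucose libraries. It was at least 166-fold higher, and its fitted log2 change of 9.11 became 7.77 without Wilmar-P glucose-starved replicate 2 and 8.36 without Wilmar-A glucose-starved replicate 2, still called. SPNCRNA.791 over *rad55*, a recombination mediator gene, had 11.04 and 202 CPM in Wilmar-P and 10.49 and 46.3 CPM in Wilmar-A starved libraries, against 0.238 and 0.759 CPM in glucose libraries (log2 6.98 ± 1.34). It was 5.35 without Wilmar-P glucose-starved replicate 2 and 6.22 without Wilmar-A glucose-starved replicate 2. The 2 RNAs are high in the same libraries, and SPNCRNA.791 lies 213 bases from the divergent gene *pil2*, which rose by 5.08.

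Among antisense RNAs that fell, those of *mag2*, *hsp3105* and *atg1801* stood over genes that rose. SPNCRNA.1487 (chromosome II, 2120212 to 2121384, minus strand) covers *mag2*, a DNA glycosylase gene. It had 1.95 and 2.03 CPM in Wilmar-P and 2.72 and 2.55 CPM in Wilmar-A starved libraries, against 30.8 and 25.7 CPM in glucose libraries (log2 -3.61 ± 0.21, adjusted p = 1.46e-06). The *mag2* transcript had 21.5 to 38.9 CPM in starved libraries, against 0.653 and 1.58 CPM in glucose ones (log2 4.87 ± 0.38). Antisense counts lay below sense in the 4 starved libraries and above it in both glucose libraries.

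SPNCRNA.973 over *hsp3105*, a gene of the glyoxalase III family, had 0.0811, 0.163, 0.933 and 0.339 CPM in starved libraries, against 4.22 and 4.50 CPM in glucose libraries (log2 -3.90 ± 0.48). The *hsp3105* transcript had 86.6 to 103 CPM in starved libraries, against 3.09 and 3.33 CPM in glucose ones (log2 4.88). Reads of *hsp3105* and its paralogue *hsp3102* may be split uncertainly. SPNCRNA.560 over *atg1801*, an autophagy gene, had 0, 0, 0.311 and 0.170 CPM in starved libraries, against 1.13 and 1.52 CPM in glucose libraries (log2 -4.81 ± 0.79, adjusted p = 0.000689), and *atg1801* rose by 2.37.

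The falls over *pfd1* and *pcl1* had sense genes that were not called. SPNCRNA.1461 over *pfd1*, a prefoldin subunit gene, had 0.764 to 2.60 CPM in starved libraries, against 26.1 and 19.4 CPM in glucose libraries (log2 -4.15 ± 0.38, adjusted p = 1.22e-05), with *pfd1* at 0.24 (adjusted p = 0.44). SPNCRNA.100 over *pcl1*, an iron transporter gene, had at most 2 counts in starved libraries and was at least 2.29-fold lower, with *pcl1* at 0.19. SPNCRNA.1192 over *wtf11* fell by 4.12 while *wtf11* rose by 1.69. That gene belongs to a family of near-identical copies, and its counts are uncertain.

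**Figure D3:**
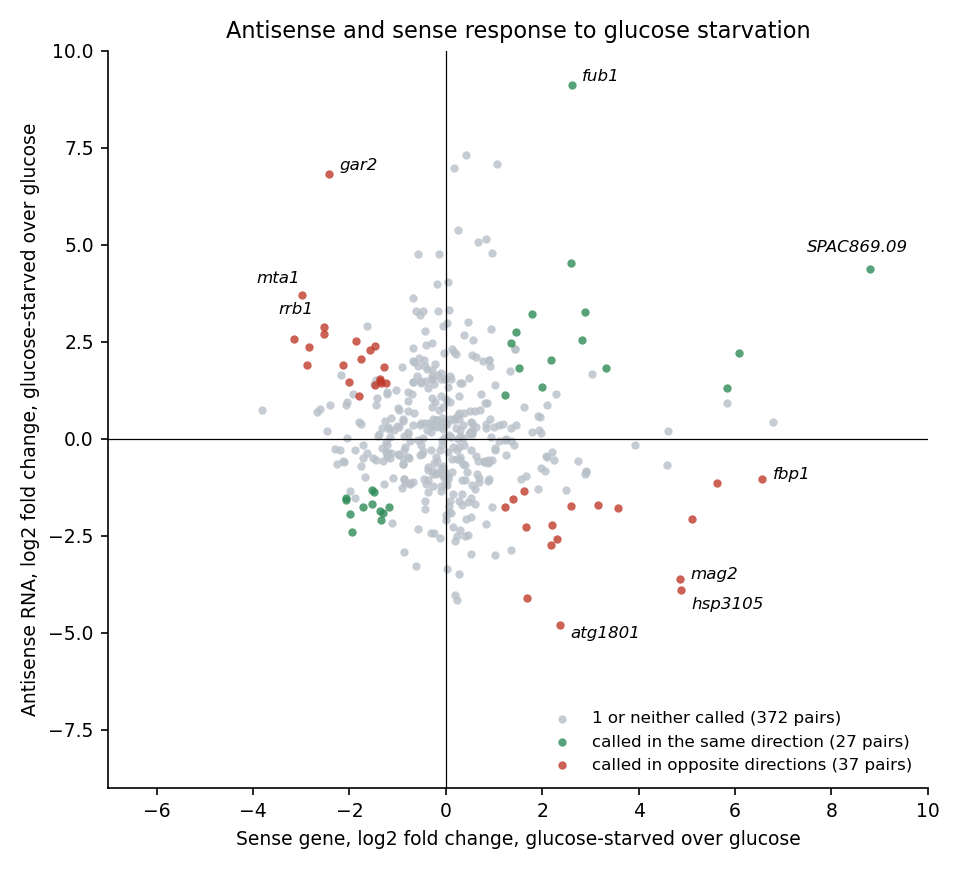
Log2 fold change of the antisense RNA (vertical) against that of its sense gene (horizontal), glucose-starved over glucose, 1 point per pair (436 pairs tested on both strands). Red points (37) were called in opposite directions, green (27) in the same direction and grey (372) in 1 strand or neither; r across pairs is -0.05.

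Over the 436 pairs tested on both strands, opposite and same directions both occurred, at shares near those of all pairs. In 37 pairs both strands were called in opposite directions, in 27 in the same direction. Genes with several members can enter more than once, as *rrb1* does in the 37 and *pfl3* in the 27. Of the 37, 20 had antisense higher and sense lower, and 17 the reverse. The sense gene fell in 20.2% of pairs whose antisense RNA rose, and in 20.4% of all pairs. It rose in 23.0% of pairs whose antisense RNA fell, and in 17.0% of all pairs. The pairwise log2 changes had r = -0.05, given as a description since pairs share the libraries.

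Beside *gar2*, the opposite pairs with antisense higher included *mta1*, a methylthioadenosine phosphorylase gene (log2 3.69 for antisense and -2.98 for sense), the glycoprotein gene *pfl8* (2.35 and -2.83), *rrb1*, a ribosome assembly factor in budding yeast, where SPNCRNA.514 rose by 2.89 and SPNCRNA.1490 by 2.70 while *rrb1* fell by 2.53, *ebp2* of ribosomal RNA processing (1.90 and -2.12), and *rpb8*, a subunit shared by the RNA polymerases (1.90 and -2.88). SPNCRNA.815 over *mug68* rose by 2.57, with 157 to 228 CPM in starved libraries, against 32.0 and 37.6 CPM in glucose ones, while the very low *mug68* transcript fell by 3.15. Opposite pairs with antisense lower included *fbp1*, *cta3* (a cation ATPase gene; -1.72 and 3.16), *mug182* (-2.06 and 5.11) and *cao2* (-2.58 and 2.31).

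SPNCRNA.1324 (chromosome II, 197369 to 200995, plus strand) covers *fbp1*, the gluconeogenic fructose-1,6-bisphosphatase whose gene glucose represses. It had 3.73, 3.902, 4.28 and 4.50 CPM in starved libraries, against 8.38 and 8.41 CPM in glucose libraries (log2 -1.03 ± 0.28, adjusted p = 0.00932). The sense transcript had 370 to 983 CPM in starved libraries, against 5.05 and 10.51 CPM in glucose libraries (log2 6.56 ± 0.55). The antisense count was near the sense count on glucose and far below it under starvation. In the same direction, both strands rose at *SPAC869.09* (antisense 4.38, sense 8.79) and at *hsp3101* (2.20 and 6.07).

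**Figure D4:**
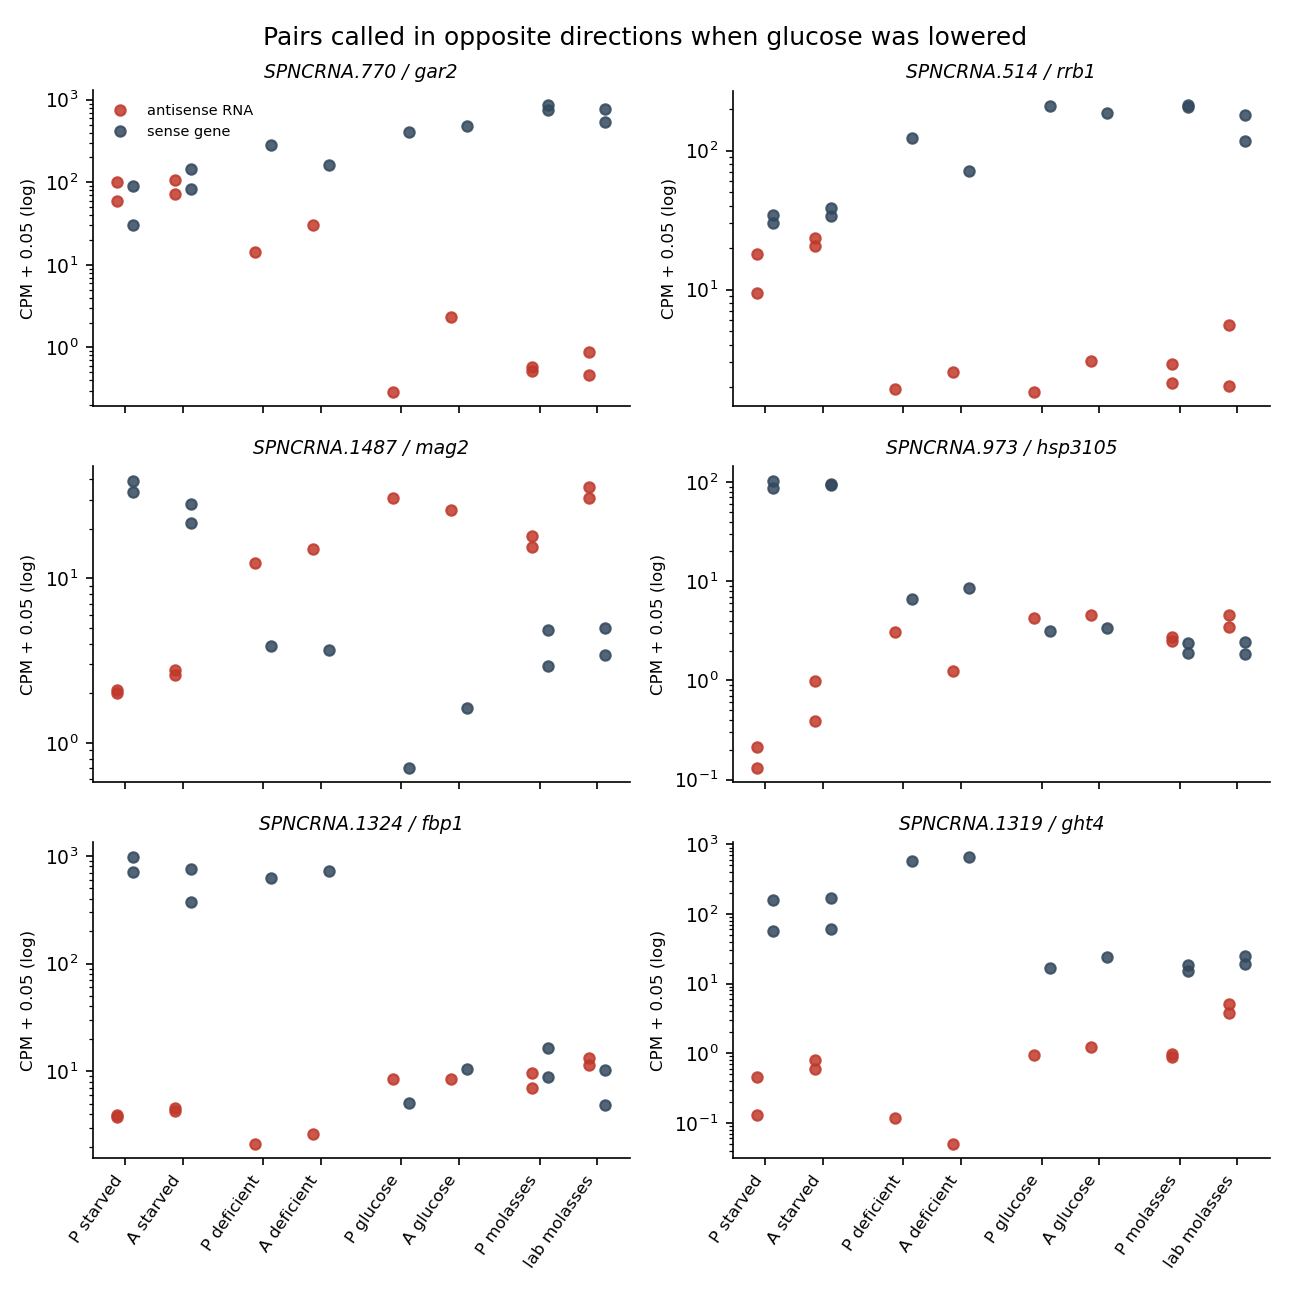
CPM (log axis, 0.05 added) of 6 antisense RNAs (red) and their sense genes (dark blue) in the 12 libraries by medium and strain (P, Wilmar-P; A, Wilmar-A; lab, laboratory), 1 point per library. The antisense RNA of *gar2* is high in starved libraries and low in glucose ones, while those of *mag2* and *hsp3105* are low where their sense genes are high.

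Sense-gene classes, taken from lists chosen with earlier results known, were counted in the same way, and are to be read against the 19.2% of all features that rose and the 15.4% that fell. Of 29 tested antisense RNAs over genes on the meiosis and mating list, 8 rose and 4 fell. The 8 include SPNCRNA.639 (1.85) over *mcp60*, a mitochondrial chaperonin gene that the match by symbol took in. Of 29 over transporter genes, 1 rose and 3 fell, while of 30 transporter sense genes 6 rose and 3 fell. Of 5 over genes on the carbon-use list none rose and 1, that of *fbp1*, fell, with 4 of the sense genes higher. That list was matched by symbol and takes in *pck1*, a protein kinase C gene in fission yeast. Not all 5 are therefore carbon-use genes. Of 261 tested antisense RNAs that span the sense start codon, 55 rose and 45 fell, and of 165 that do not, 39 rose and 27 fell, both near the 22.6% and 16.8% of all tested members.

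Coding genes next to the antisense start were set beside the members in the same way. For 152 tested members starting within 500 bases of a divergent coding gene, the log2 changes in starvation of RNA and neighbour had r = 0.46 across members, which share the libraries. Of 64 such members called, 22 moved in the direction of a called neighbour and 3 against it. Among all coding genes tested, 17.5% rose and 15.5% fell. For 88 members lying within 500 bases downstream of a gene on the same strand, r was 0.14, with 11 in the same direction and 4 opposite of 38 called. For the divergent neighbours r was 0.17 in deficiency, with 4 in the same direction and 2 opposite of 21 called, and 0.19 for Wilmar-P against the laboratory strain, with 0 and 0 of 12. In starvation the antisense RNA of *atg38*, 167 bases from *mug168*, moved with that gene (4.79 and 4.81). So did that of *wsc1*, 37 bases from *SPBC30B4.09* (3.33 and 5.17). Both are examples of the same direction only.

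Genes of the machinery known to remove or repress antisense RNA were followed as a list of 73 tested. In starvation 2 rose and 11 fell, with a median log2 change of -0.24, where 19.2% of all features rose and 15.4% fell. Of 12 exosome genes 5 fell: *rrp6* by 1.04, *rrp4* by 1.29, *rrp41* by 1.64, *rrp45* by 1.28 and *csl4* by 1.81. The part of these changes in the antisense levels was not tested. No antisense RNA was called for a difference of the starvation response between the isolates (0 called, lowest adjusted p = 0.689, edgeR). With 1 glucose library per isolate, this contrast cannot show that the isolates respond alike. At an unadjusted p below 0.05 (edgeR) there were 11 of the 447 tested, and DESeq2 called 0.

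Glucose-deficient cells, with 1 library per isolate, were compared with glucose cells. Of the 447, 26 rose (5.82%, against 6.48% of all features) and 42 fell (9.4%, against 4.47% of all features), with a median of -0.22. Of 311 tested SPNCRNA features that overlap no coding gene, 13 rose and 26 fell (8.36%), with a median of -0.54. Of 444 sense genes 34 rose and 19 fell. The comparison shares its glucose libraries with that of starvation. The count of 42 was 19 and 21 without Wilmar-A glucose-starved replicates 1 and 2, and 24 and 19 without Wilmar-P molasses replicates 1 and 2. Among the pairs, 7 were called in opposite directions and 5 in the same direction, with r = -0.04. The 5 include SPNCRNA.1311 and SPNCRNA.293 (5.75 and 5.74), both over *pfl7*, so that gene enters more than once.

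The largest opposite pair was *ght4*, a hexose transporter gene. SPNCRNA.1319 (chromosome II, 157362 to 158316, minus strand) had 1 and 0 counts in the deficient Wilmar-P and Wilmar-A libraries, against 15 and 20 counts in the glucose ones, and was at least 4.87-fold lower (adjusted p = 0.0104). The *ght4* transcript had 576 and 666 CPM in deficient libraries, against 16.6 and 23.8 CPM in glucose libraries (log2 4.96 ± 0.60). Reads of *ght4* and other hexose transporter genes may be shared. SPNCRNA.1324 over *fbp1* had 2.07 and 2.59 CPM in deficient libraries, against 8.38 and 8.41 CPM in glucose libraries (log2 -1.85 ± 0.34), with *fbp1* higher by 6.53. Over *mag2*, SPNCRNA.1487 fell by 1.05, with 12.4 and 15.1 CPM in deficient libraries, against 30.8 and 25.7 CPM in glucose ones, and *mag2* rose by 1.86.

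Falls in deficient cells also occurred over genes that were not called. SPNCRNA.616 over *otg1*, a galactosyltransferase gene, had 2 and 2 counts in deficient libraries, against 22 and 33 counts in glucose libraries, and was at least 7.65-fold lower. SPNCRNA.661 over *gep3*, a GTPase-like gene, had 3 and 4 counts in deficient libraries, against 38 and 37 counts in glucose libraries (log2 -3.13 ± 0.71, adjusted p = 0.0163). SPNCRNA.692 over *wss1*, a DNA repair peptidase gene, had 5 and 3 counts in deficient libraries, against 36 and 30 counts in glucose libraries (log2 -2.79 ± 0.57). For all 3, the deficient values lay below both glucose values, which the choice of named members required. The sense genes had log2 changes of -0.99, 0.18 and -0.34.

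Some members rose. SPNCRNA.770 over *gar2* had 14.1 and 30.4 CPM in deficient libraries, against 0.238 and 2.28 CPM in glucose libraries (log2 4.79 ± 0.43, adjusted p = 0.000153), and these values lie between the glucose and starved ones. *gar2* itself had a log2 change of -1.04 (adjusted p = 0.142). SPNCRNA.1311 over *pfl7*, a cell-surface glycoprotein gene, had 73 and 68 counts in deficient libraries, against 1 and 2 counts in glucose libraries, and was at least 28.1-fold higher. The *pfl7* transcript also rose, by 3.43 (adjusted p = 0.0481, edgeR). Wilmar-P starved replicate 2 had 27 counts of SPNCRNA.1311 and the other starved libraries at most 3. SPNCRNA.1396 over *psy2*, a phosphatase PP4 subunit gene, had 13 and 26 counts in deficient libraries and 0 and 5 counts in glucose libraries (log2 4.66 ± 1.03).

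In molasses against glucose, within Wilmar-P (2 libraries against 1), none rose (0.899% of all features did) and 5 fell (1.12%, against 0.564% of all features). At an unadjusted p below 0.05 (edgeR) there were 74 of the 447 members, beside 924 of all 6562 features. By the DESeq2 Wald statistic 1 rose and 13 fell, with no share of all features by that test to set beside them. The 5 were the antisense RNAs of *acr1*, a gene of the RNA polymerase I activation complex (-2.61), *brl1*, a histone H2B ubiquitin ligase gene (-2.32), *psm1*, a cohesin gene (-2.30), *mre11*, a DNA repair nuclease gene (-2.30), and *cao2*, a copper amine oxidase-like gene (-1.79). SPNCRNA.1593 over *acr1* had 1.16 and 1.07 CPM in molasses libraries, against 6.83 CPM in the glucose library. The sense genes of the first 4 had log2 changes between -0.52 and 0.34 and were not called; *cao2* rose by 2.05. Each of the 5 lost its call when either Wilmar-P molasses library was left out, where the count was 0. It was 9 without either laboratory molasses library.

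Between strains on molasses, antisense RNAs were mostly lower in Wilmar-P than in the laboratory strain (2 libraries each). Reads of both strains were aligned to the reference genome of the laboratory strain. The part of sequence differences in the result was not tested. Of the 447, 2 were higher (0.447%, against 0.869% of all features) and 37 lower (8.28%, against 3.86% of all features), and the median was -0.46. Of 311 tested SPNCRNA features that overlap no coding gene, 45 were lower (14.5%). Of the sense genes 1 was higher and 16 lower, and in 4 pairs both strands were lower. The log2 changes of antisense and sense had r = 0.37 across pairs, which share the libraries. The count of 37 was 66 without laboratory molasses replicate 1, 14 without laboratory replicate 2, 18 and 12 without Wilmar-P molasses replicates 1 and 2, and 22 and 23 without Wilmar-A glucose-starved replicates 1 and 2. Members take a larger share of counts in laboratory replicate 2 (0.404%) than in replicate 1 (0.285%); the part of this in the result was not tested.

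The *eta2* antisense signal was the strongest by level. SPNCRNA.74 (chromosome I, 3002976 to 3003758, minus strand) had 36.7 and 33.9 CPM in Wilmar-P, against 160 and 194 CPM in laboratory libraries (log2 -2.33 ± 0.31, adjusted p = 0.00171), while *eta2* itself had 1.70 and 1.45 CPM in Wilmar-P and 2.44 and 2.04 CPM in laboratory libraries (log2 -0.51, adjusted p = 0.657). SPNCRNA.73 and SPNCRNA.872, which share its reads, fell by 2.65 and 2.21. All 3 were called whichever starved or molasses library was left out. In the Wilmar isolates the same RNA rose in starvation by 1.77, with 186 and 213 CPM in Wilmar-P and 220 and 119 CPM in Wilmar-A, against 50.7 and 57.3 CPM on glucose.

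The 2 antisense RNAs that were higher in Wilmar-P are those of *mde6* and *cao2*. SPNCRNA.928 (chromosome I, 3697473 to 3700084, minus strand) spans both codons that bound the *mde6* coding sequence, a muskelin gene on the meiosis list, and had 8.51 and 7.53 CPM in Wilmar-P, against 1.41 and 1.11 CPM in laboratory libraries (log2 2.67 ± 0.41, adjusted p = 0.00388). The *mde6* transcript had 5.18 and 5.86 CPM in Wilmar-P, against 26.2 and 32.0 CPM in laboratory libraries (log2 -2.40 ± 0.34), so the dominant strand differed between the strains. SPNCRNA.1690 over *cao2* had 7.66 and 9.96 CPM in Wilmar-P, against 1.74 and 1.69 CPM in laboratory libraries (log2 2.36 ± 0.31), with *cao2* at -0.38 (adjusted p = 0.382).

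Several of the lower members were at the floor in Wilmar-P molasses libraries, so their folds are bounds. SPNCRNA.1213 over the dehydrogenase gene *SPCC663.08c* had 0.0774 and 0 CPM in Wilmar-P, against 4.95 and 6.75 CPM in laboratory libraries, and was at least 25.4-fold lower. SPNCRNA.1344 over *SPBC1271.08c* was at least 19.8-fold lower, SPNCRNA.520 over the kinase gene *nnk1* at least 15.1-fold and SPNCRNA.1309 over *alr2*, an alanine racemase gene, at least 9.15-fold. SPNCRNA.1345 over the acetyltransferase gene *SPBC1271.07c* had no count in any of the 10 Wilmar libraries, against 24 and 37 counts in laboratory libraries, and its sense gene also had nearly none. A locus that is missing or diverged in the isolates and one that is silent cannot be told apart from these counts. SPNCRNA.1344 had 4 to 27 counts in the 4 starved Wilmar libraries. SPNCRNA.1344, SPNCRNA.1309 and SPNCRNA.1345 were not called without laboratory molasses replicate 2, nor SPNCRNA.1309 and SPNCRNA.1345 without Wilmar-P molasses replicate 2, nor SPNCRNA.1345 without Wilmar-P molasses replicate 1.

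**Figure D5:**
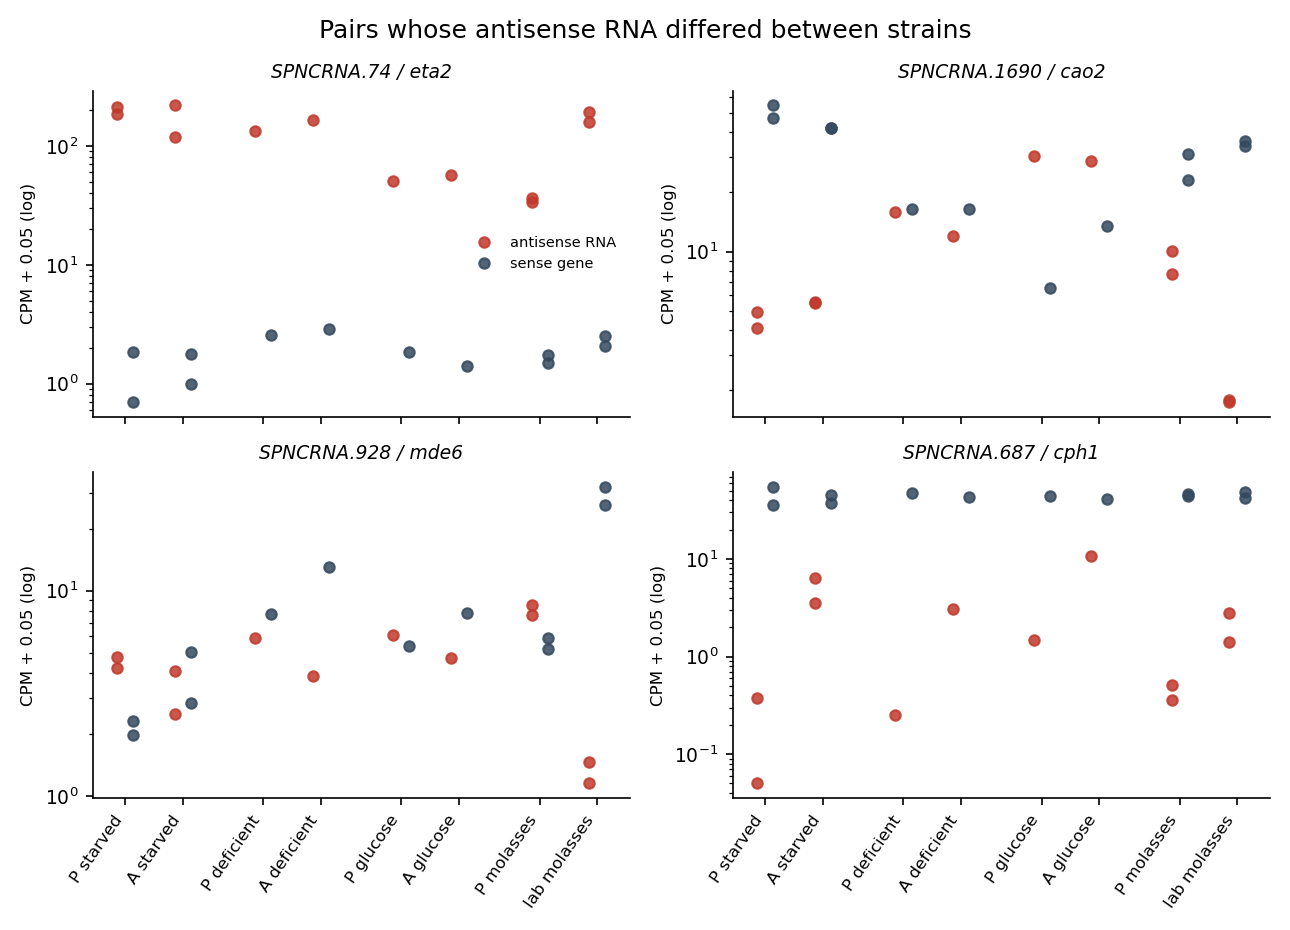
CPM (log axis, 0.05 added) of 4 antisense RNAs (red) and their sense genes (dark blue) by strain and medium, 1 point per library. The *eta2* antisense RNA is low in Wilmar-P molasses and high in laboratory molasses, the *mde6* strands trade places, and the *cph1* antisense RNA is lower in Wilmar-P than in Wilmar-A in each medium.

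At *byr1*, the MAP kinase kinase gene of the mating pathway, the sense transcript was called and the antisense RNA was not. The *byr1* transcript had 5.26 and 3.42 CPM in Wilmar-P molasses libraries, against 87.2 CPM in the Wilmar-P glucose library (log2 -4.33 ± 0.38) and 48.0 and 73.5 CPM in laboratory molasses libraries (log2 -3.81 ± 0.35). SPNCRNA.674, which spans both ends of its coding sequence, had 8.74 and 7.15 CPM in Wilmar-P molasses libraries, against 11.35 CPM in the Wilmar-P glucose library (log2 -0.51, adjusted p = 0.563) and 7.003 and 7.86 CPM in laboratory molasses libraries (log2 0.10, adjusted p = 0.901).

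Between the isolates in the 3 laboratory media (4 libraries each), none was higher in Wilmar-P (0.107% of all features were) and 3 were lower (0.671%, against 0.594% of all features). At an unadjusted p below 0.05 (edgeR) there were 56 of the 447 members, beside 545 of all 6562 features. DESeq2's Wald test called 6 lower, again with no share of all features by that test to set beside them. Without Wilmar-P glucose-starved replicate 1 the count was 6. SPNCRNA.687 (chromosome I, 799485 to 800012, minus strand) lies over *cph1*, a gene of the Clr6 histone deacetylase complex, and is the only one whose libraries did not overlap. On starvation it had 4 and 0 counts in Wilmar-P, against 82 and 41 counts in Wilmar-A. On deficiency it had 3 counts in Wilmar-P and 41 in Wilmar-A, and on glucose 24 in Wilmar-P and 183 in Wilmar-A, so the direction held in each medium (log2 -3.87 ± 0.56, adjusted p = 0.00672). Without Wilmar-P glucose-starved replicate 1 the value was -5.31, and it was called whichever starved or molasses library was left out. The single glucose and glucose-deficient libraries, which also enter this comparison, were not left out. The *cph1* transcript had a log2 change of 0.12 (adjusted p = 0.856).

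The other 2 overlapped between the isolates. SPNCRNA.1276 over *brl1* was lower by a log2 change of -1.53 (adjusted p = 0.0122): it had 3.49 and 4.63 CPM in Wilmar-P and 8.55 and 5.26 CPM in Wilmar-A on starvation, 14.4 CPM in Wilmar-P and 44.8 CPM in Wilmar-A on deficiency, and 5.76 CPM in Wilmar-P and 26.6 CPM in Wilmar-A on glucose. SPNCRNA.1328 over *atg38*, an autophagy gene, named after its values were seen, fell by 1.54 and lost its call in 4 of the fits with 1 library left out.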

How the data were processed

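RNA was sequenced from total RNA depleted of ribosomal RNA, with a stranded kit. Raw counts per feature were deposited by the authors, who trimmed reads with Trim_Galore, aligned them with TopHat2 2.1.1 and counted them with featureCounts 1.5.2 by strand, on ASM294v2 annotation, a read over several features being counted for each. Of the 16 libraries, 12 were used. The 4 left out (3 labelled unstranded, and Wilmar-A glucose replicate 1) did not separate the strands.

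The counts were fitted in 1 edgeR 4.0.16 quasi-likelihood model (R 4.3.3) with TMM scaling, 8 group coefficients and low counts filtered, and p-values were adjusted by Benjamini-Hochberg over all 6562 features tested. A call needed an adjusted p below 0.05 and an absolute log2 fold change above 1. CPM are TMM-scaled. The fit was tested on simulated data. DESeq2 1.42.0 and other filters, libraries and member definitions were the alternatives. Coding positions and sequences came from RefSeq on ASM294v3, where 461 of 463 matched members had the same coordinates.

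The members and gene lists were chosen with earlier results of these data known. Named were, per comparison, the 5 highest and 5 lowest called members whose groups did not overlap and the 5 pairs called in opposite directions that differed most, then the 10 highest levels, the 5 highest antisense to sense ratios and members over genes the study names. The text describes those the results turn on. Tables and figures used Python 3.11.15, pandas 2.3.3, numpy 2.4.6 and matplotlib 3.10.9.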

Additional observations from a re-analysis of the deposited data

Results flagged for a closer look

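One library outside the comparisons showed a signal: Wilmar-A glucose replicate 1 is labelled stranded, but its median antisense to sense ratio per kb was 0.934, against 0.0812 to 0.167 in the 12 libraries used. The 3 libraries labelled unstranded and this one together ran between 0.914 and 0.934. Members took 2.83% to 2.89% of counts in these 4 libraries.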

How the results depend on the processing

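In all, 28 of 122 recomputed values moved beyond 1.5 times, or beyond 1 SD for the ratio. With at least 10 counts in every library, the calls in starvation were 53 higher and 34 lower, in deficiency 10 and 24, and 16 lower against the laboratory strain, 1 lower against Wilmar-A, with 21 opposite pairs; fewer features are tested there. With 13 libraries labelled stranded, which adds Wilmar-A glucose replicate 1, they were 42 higher in starvation, fewer than the lower calls there, 9 higher and 23 lower in deficiency, 0 lower in molasses, 10 lower against the laboratory strain and 1 lower against Wilmar-A. With all 16 libraries and a strandedness term they were 16 lower in deficiency, 4 higher and 15 lower in molasses, 56 lower against the laboratory strain and 1 lower against Wilmar-A. The DESeq2 Wald test gave 1 higher and 13 lower in molasses and 6 lower against Wilmar-A. A wider member definition gave 40 higher in deficiency, 1 higher in molasses, 5 higher against the laboratory strain and 8 lower against Wilmar-A. It holds 736 members, against 487, so its counts are larger from the number of members alone. The median antisense to sense ratio was 0.0655 from raw counts and 0.293 over the 188 pairs with at least 10 counts in every library.

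Leaving out 1 library gave at least 92 higher and 62 to 79 lower in starvation, 19 to 33 and 19 to 57 in deficiency, 0 to 9 lower in molasses, 2 to 6 higher and 12 to 66 lower against the laboratory strain, 2 to 6 lower against Wilmar-A, 32 to 45 opposite pairs and a ratio of 0.119 to 0.131. The single glucose and glucose-deficient libraries stayed in all of these fits and were left out only for the ratio. Of 1158 alternatives for the named members, 1054 kept the call and 97 lost it in the same direction. The 7 reversals were SPNCRNA.1319 (2.12), SPNCRNA.1324 (1.44), SPNCRNA.734 (-0.22) and SPNCRNA.977 (0.18) in deficiency with 16 libraries, and SPNCRNA.643 (-0.71 in starvation, -0.38 in deficiency) and SPNCRNA.734 (-1.84 in deficiency) with 13. Both fits add libraries that did not separate the strands, and the cause of the reversals was not tested.

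In the labels, a replicate number is all that links same-numbered libraries. Over 5061 coding genes their deviations correlated at 0.32 between the starved groups of the isolates. In the other pairs of groups r lay between -0.18 and 0.18. Over the 447 members r was 0.19 between the starved groups and between -0.09 and 0.14 in the others. A fit with the replicate block gave 111 higher and 69 lower in starvation, 34 and 45 in deficiency, 0 and 7 in molasses, 2 and 37 against the laboratory strain, 0 and 5 against Wilmar-A, and 41 opposite pairs. At 18 to 44 median counts, small changes of most members were not detectable.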
